A study of Mus musculus with 9 samples.

Results

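Peritubular myoid cells, the interstitial mesenchyme and the blood vessels of the testis were followed through 10 genes, taken by name from the 32035 genes measured. Acta2, Myh11, Tagln and Cnn1 encode proteins of the smooth muscle contractile apparatus. Pdgfra and Pdgfrb encode the receptors for platelet-derived growth factors (PDGF) on mesenchymal and mural cells. Pecam1, Cdh5, Vwf and Kdr encode proteins of the endothelium. They are known markers taken by name and not by a threshold on measured values, although earlier results of these data were known when they were chosen.

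The 9 RNAseq libraries came from whole testes of 3 wild-type (WT), 3 Kpna6ΔIBB/ΔIBB and 3 Kpna6-/- mice on the C57Bl6/N background, 15 weeks old by the labels. Kpna6 encodes importin α7, a carrier that takes proteins into the nucleus. Kpna6ΔIBB/ΔIBB animals lack exon 2, so that a shortened transcript gives a protein without the domain that binds importin β, and their males are sterile. Kpna6-/- animals carry a gene trap in intron 1, which removes the protein from other organs, whereas a transcript from a testis-specific exon 1A keeps the full-length protein in germ cells while the Sertoli cells lack it, and their males are fertile. No cell type was sorted and both alleles are carried in every cell of the animal. Each library held between 24859800 and 31484700 estimated counts on genes. The 3 comparisons were of each mutant line with WT and of the lines with each other.

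Peritubular myoid cells form the thin contractile wall of the seminiferous tubule, where they move sperm and fluid along the lumen and lay down basement membrane together with Sertoli cells. They develop under desert hedgehog and PDGF signals released by Sertoli cells, and they share the actin, myosin and calponin genes of vascular smooth muscle, which are switched on through serum response factor (SRF) at a short DNA element, the CArG box. Endothelial cells line the vessels between the tubules and do not enter the tubule.

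In Kpna6ΔIBB/ΔIBB testes, 3 of the 4 contractile genes and Pdgfra were higher than in WT, and Vwf was lower, in a comparison in which 37.1% of all genes passed the test (17.9% higher and 19.1% lower). Acta2 had the largest fold change of the 10, 1.56-fold. Among the increases Pdgfra with 1.47-fold and Tagln with 1.38-fold came next, and Vwf stood at 0.713 of the WT level. In Kpna6-/- testes no gene of the 10 passed the threshold of an adjusted p of 0.05. The endothelial genes did not move together: Vwf fell, and Pecam1, Cdh5 and Kdr did not pass the threshold in any comparison.

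The targeted gene was read first. Levels are given as normalised CPM, the counts scaled to a common effective library total. Kpna6 stood at 202, 325 and 332 CPM in WT, at 81.1, 85.5 and 81.9 in Kpna6ΔIBB/ΔIBB and at 247, 249 and 261 in Kpna6-/- testes. The Kpna6ΔIBB/ΔIBB libraries were lowest, with a log2 fold change of -1.79 ± 0.24 (SE, adjusted p = 0.00615, edgeR), and the Kpna6-/- libraries lay within the WT range (-0.18 ± 0.23, adjusted p = 0.791).

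By TPM, the counts divided by transcript length and scaled to a fixed total, the order of the 10 genes in WT testes began with Acta2 at 32.3 ± 0.858 (SD, n = 3). Tagln (15.0 ± 1.65) and Vwf (14.4 ± 2.46) came next and their sample ranges overlapped. Myh11 (6.93 ± 0.486) and Pecam1 (6.21 ± 0.432) also overlapped, and Pdgfra followed at 4.23 ± 0.641. Cdh5 (2.71 ± 0.414) could not be separated from Cnn1 (2.40 ± 0.286), nor Kdr (1.27 ± 0.111) from Pdgfrb (1.03 ± 0.330). When only transcripts annotated as protein coding were summed, a choice made after seeing the data, Vwf dropped from the third place to the fifth with 3.52 ± 0.163 TPM and Pecam1 from the fifth to the ninth with 1.18 ± 0.317 TPM.

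**Figure D1:**
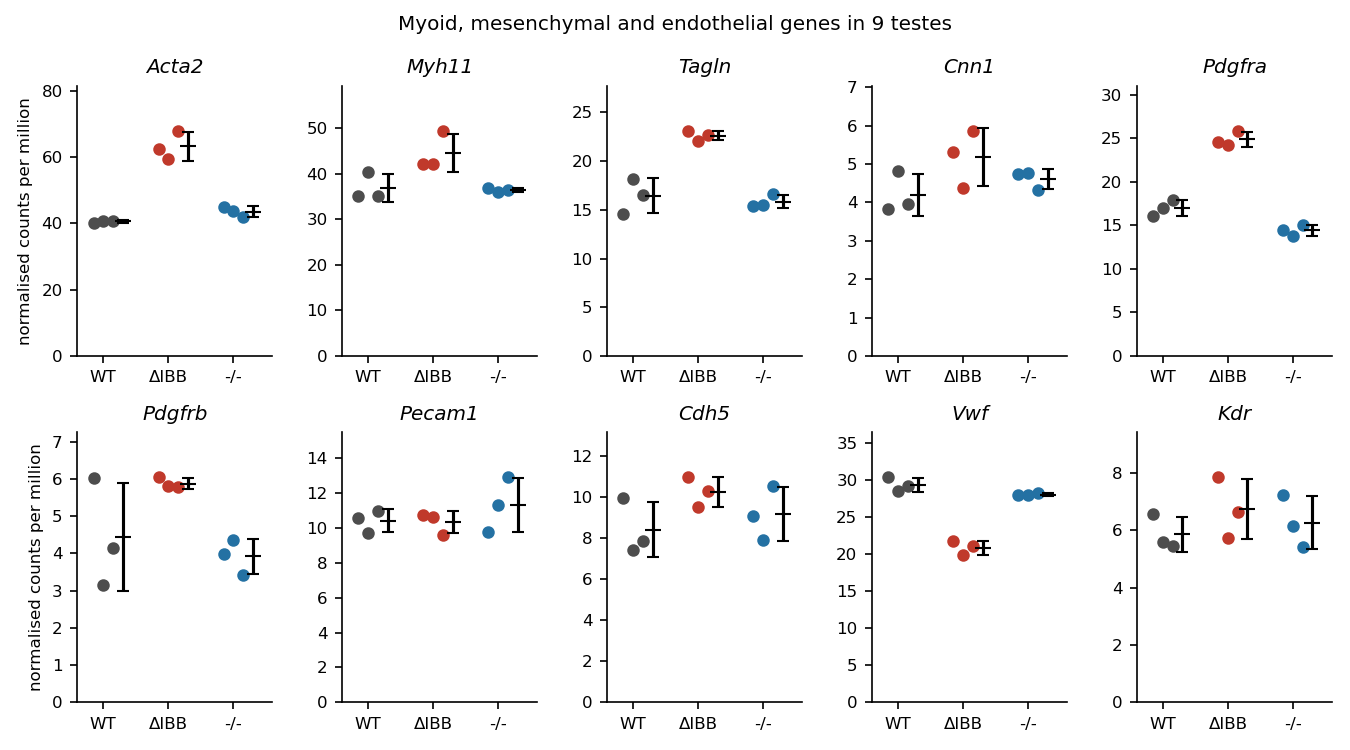
Normalised CPM (vertical axes, each starting at 0) of the 10 genes in the 9 testes. Every point is 1 library, placed by genotype on the horizontal axis (WT, Kpna6ΔIBB/ΔIBB as ΔIBB, Kpna6-/- as -/-), and the black marks give mean ± SD of 3 libraries. The 3 ΔIBB points lie above all WT points for Acta2, Myh11, Tagln and Pdgfra, and below them for Vwf.

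Acta2 encodes smooth muscle α-actin, the thin filament protein by which peritubular myoid cells are commonly recognised. The gene lies on chromosome 19 at 34241090-34255590, minus strand, in GRCm38, and the files hold 1 transcript for it. Its normalised level was 40.1, 40.9 and 40.8 CPM in WT testes. It was 62.3, 59.5 and 67.9 CPM in Kpna6ΔIBB/ΔIBB testes. It was 45.1, 43.8 and 41.8 CPM in Kpna6-/- testes. All Kpna6ΔIBB/ΔIBB libraries were above every other library. The log2 fold change against WT was 0.64 ± 0.06 (SE), with a 95% interval of 0.52 to 0.77 and an adjusted p of 2.33e-06. Against Kpna6-/- it was 0.53 (0.41 to 0.65, adjusted p = 2.94e-06). The Kpna6-/- libraries were each above each WT library, but the difference of 0.10 did not pass the threshold (-0.01 to 0.22, adjusted p = 0.412).

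The 250 bases before the RefSeq start of Acta2 (GRCm38.p6, chr19:34255374-34255623, minus strand) are shown because this is the member with the largest change. These bases held near matches to the CArG box, each with 1 inner base off. GENCODE starts the gene at 34255590, inside this window, so both marked stretches lie within the gene span given above. Myh11 and Tagln had no window in the table and were not searched. The strict element is CC, then 6 bases of A or T, then GG. It reads the same way on either strand. Capitals mark stretches of this form with 1 of the 6 inner bases departing from A or T, which lie 84 and 34 bases before the start in Acta2 and 236 bases before it in Kdr. The Cnn1 and Kdr windows (GRCm38.p6, chr9:22099003-22099252, plus strand, and chr5:75978456-75978705, minus strand) are given for comparison.
Acta2: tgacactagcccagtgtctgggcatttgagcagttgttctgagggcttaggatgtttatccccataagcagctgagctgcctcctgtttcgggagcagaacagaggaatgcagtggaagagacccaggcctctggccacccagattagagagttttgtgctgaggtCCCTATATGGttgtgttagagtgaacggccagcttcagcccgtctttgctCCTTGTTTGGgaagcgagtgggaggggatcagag
Cnn1: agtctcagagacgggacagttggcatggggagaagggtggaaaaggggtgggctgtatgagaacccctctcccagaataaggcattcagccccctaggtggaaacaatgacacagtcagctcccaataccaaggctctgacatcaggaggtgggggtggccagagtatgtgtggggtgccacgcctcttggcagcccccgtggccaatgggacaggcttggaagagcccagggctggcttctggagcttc
Kdr: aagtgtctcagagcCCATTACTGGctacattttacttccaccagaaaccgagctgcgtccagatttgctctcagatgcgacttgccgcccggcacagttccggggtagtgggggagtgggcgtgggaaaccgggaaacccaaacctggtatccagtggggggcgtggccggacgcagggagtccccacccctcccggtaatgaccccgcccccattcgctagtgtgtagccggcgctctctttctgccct

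No strict match was found in the windows of Acta2, Cnn1, Pdgfra and Kdr, the 4 members for which the RefSeq table held an upstream sequence. Over all 32851 windows of the same length, 1.47% held a strict match and 8.59% held a match with 1 inner base off. These matches describe letters and do not show binding. The Cnn1 and Pdgfra windows held no match with 1 inner base off either. Any link between such matches and the differences between genotypes was not tested.

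Myh11, the smooth muscle myosin heavy chain (chromosome 16, 14194535-14291372, minus strand), gave the smallest of the increases. Its level was 35.3, 40.4 and 35.1 CPM in WT, 42.2, 42.2 and 49.5 CPM in Kpna6ΔIBB/ΔIBB and 36.9, 36.0 and 36.6 CPM in Kpna6-/- testes. The groups WT and Kpna6ΔIBB/ΔIBB did not overlap, although WT replicate 2 came close to the lowest mutant library. The log2 fold change was 0.28 ± 0.08 against WT (0.11 to 0.44, adjusted p = 0.0114) and 0.29 against Kpna6-/- (0.15 to 0.42, adjusted p = 0.00293). Without WT replicate 3 the difference from WT was 0.24 with an adjusted p of 0.0545, which did not pass. It was 0.24 (adjusted p = 0.0496) without WT replicate 1 and 0.20 (adjusted p = 0.0452) without Kpna6ΔIBB/ΔIBB replicate 3. The call was therefore close to the threshold and was lost when WT replicate 3 was left out.

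Tagln encodes transgelin, an actin-bundling protein of smooth muscle (chromosome 9, 45929619-45936058, minus strand). It stood at 14.6, 18.2 and 16.6 CPM in WT, at 23.1, 22.1 and 22.7 CPM in Kpna6ΔIBB/ΔIBB and at 15.4, 15.5 and 16.6 CPM in Kpna6-/- testes. The Kpna6ΔIBB/ΔIBB libraries varied little among themselves and were all above the highest WT library. On the log2 scale Tagln was higher by 0.46 ± 0.09 against WT (0.28 to 0.64, adjusted p = 0.000755) and 0.51 against Kpna6-/- (0.36 to 0.65, adjusted p = 2.8e-05). The last 108 bases of Pcsk7, a protease gene on the opposite strand with 1015 to 1475 counts per library, overlap Tagln. The library kit does not mark strand, so reads in these bases cannot be told apart, nor those in 1241 bases shared with the antisense gene Gm48529, which is not analysed here. The summed counts of Tagln and the more abundant Pcsk7 differed by -0.07 (adjusted p = 0.379) from WT.

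Cnn1, calponin 1, an actin-binding regulator of smooth muscle contraction (chromosome 9, 22099216-22109630, plus strand), was the least abundant contractile member. It was measured at 3.82, 4.81 and 3.95 CPM in WT, 5.31, 4.38 and 5.86 CPM in Kpna6ΔIBB/ΔIBB and 4.74, 4.78 and 4.31 CPM in Kpna6-/- testes, with 109 to 186 counts behind a value. WT replicate 2 lay above the lowest Kpna6ΔIBB/ΔIBB library, so the groups overlapped. Its log2 fold change of 0.31 ± 0.15 did not pass the threshold (-0.02 to 0.63, adjusted p = 0.126), and neither did the difference from Kpna6-/- (0.16, -0.12 to 0.44, adjusted p = 0.396). The interval against WT includes a change as large as that of Myh11 or Tagln as well as 0.

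**Figure D2:**
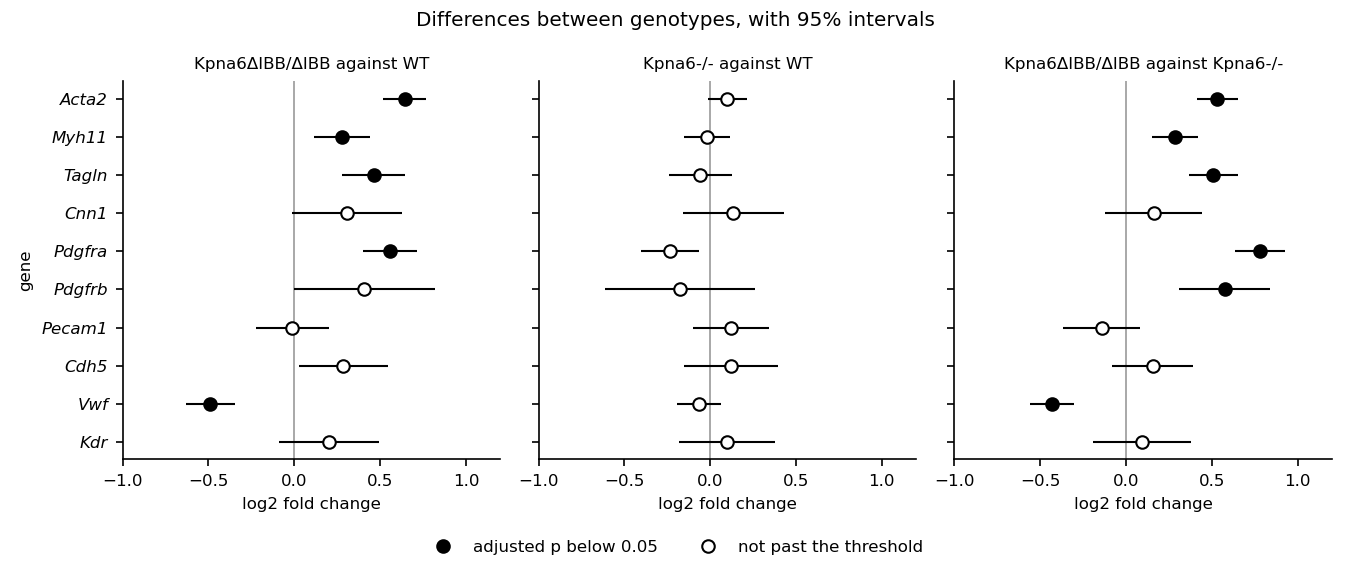
Log2 fold changes (horizontal axes) of the 10 genes (vertical axis) in the 3 comparisons, with 95% intervals from the edgeR fit as lines. Filled points passed an adjusted p of 0.05 over all genes tested: 5 genes in Kpna6ΔIBB/ΔIBB against WT, 0 in Kpna6-/- against WT and 6 in Kpna6ΔIBB/ΔIBB against Kpna6-/-.

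Pdgfra encodes the PDGF receptor α, which in the testis marks interstitial and peritubular mesenchyme and receives the ligand from Sertoli cells (chromosome 5, 75152292-75198215, plus strand). Its level was 16.0, 17.0 and 17.9 CPM in WT, 24.7, 24.2 and 25.9 CPM in Kpna6ΔIBB/ΔIBB and 14.5, 13.8 and 15.0 CPM in Kpna6-/- testes. The 3 groups did not overlap, with Kpna6ΔIBB/ΔIBB highest and Kpna6-/- lowest. The log2 fold change against WT was 0.56 ± 0.07 (0.40 to 0.71, adjusted p = 4.8e-05), and the difference between the mutant lines was the largest of the 10 genes in that comparison, 0.78 (0.64 to 0.93, adjusted p = 4.02e-07), a fold of 1.72. In Kpna6-/- the log2 difference from WT was -0.24 (-0.40 to -0.07), with an unadjusted p of 0.00911 in edgeR that became 0.15 after adjustment over all genes. The lower Kpna6-/- level was therefore not called.

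Of the 9 Pdgfra transcripts in the files, the 6549-base coding transcript Pdgfra-201 carried 49.7% ± 15.8 (SD, n = 3) of the TPM in WT and 58.0% ± 8.82 in Kpna6ΔIBB/ΔIBB testes. The groups overlapped (two-sided exact permutation test, p = 0.5, where 3 against 3 cannot give less than 0.1). Antisense gene Gm42802 overlaps 456 bases of its exons. Coding transcripts held 97.3% of the WT TPM, and the gene's call was the same when they alone were counted (0.54, adjusted p = 0.000105).

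Pdgfrb, the PDGF receptor β of pericytes and other mural cells (chromosome 18, 61045150-61085061, plus strand), varied most among WT libraries. Its level was 6.01, 3.17 and 4.13 CPM in WT, 6.04, 5.80 and 5.80 CPM in Kpna6ΔIBB/ΔIBB and 3.98, 4.35 and 3.43 CPM in Kpna6-/- testes, from 93 to 184 counts a library. WT replicate 1 was as high as the Kpna6ΔIBB/ΔIBB libraries, whereas the other WT libraries lay near those of Kpna6-/-. The difference from WT, 0.41 ± 0.19, did not pass the threshold (adjusted p = 0.112), and without WT replicate 1 it was 0.69 with an adjusted p of 0.00425. Against Kpna6-/-, where the groups did not overlap, Pdgfrb was higher by 0.57 (0.31 to 0.84, adjusted p = 0.00224).

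Pecam1 encodes CD31, an adhesion molecule at endothelial cell contacts (chromosome 11, 106654217-106750628, minus strand). Summed over its 8 transcripts it stood at 10.5, 9.69 and 11.0 CPM in WT, 10.7, 10.6 and 9.58 CPM in Kpna6ΔIBB/ΔIBB and 9.77, 11.3 and 12.9 CPM in Kpna6-/- testes. The 3 groups overlapped. The log2 difference of Kpna6ΔIBB/ΔIBB from WT was -0.01 (-0.22 to 0.20, adjusted p = 0.942). Most of this signal was not on a coding transcript: Pecam1-208, a 2142-base transcript annotated as a retained intron, held 78.3% ± 7.86 of the WT TPM and 72.9% ± 7.74 of the WT counts. A stretch of 117 to 186 bases of this transcript was at least 95% identical to transcripts of 61 other genes, and none of the other Pecam1 transcripts had such a stretch. The 6 coding transcripts together gave 108, 76.4 and 58.0 counts in WT, 94.9, 114 and 110 counts in Kpna6ΔIBB/ΔIBB and 63.6, 112 and 113 counts in Kpna6-/- testes. On these alone the log2 difference from WT was 0.36 (adjusted p = 0.167), so the direction turned while the call did not change.

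Cdh5, VE-cadherin of the endothelial adherens junction (chromosome 8, 104101625-104144511, plus strand), was measured at 9.96, 7.45 and 7.87 CPM in WT, 11.0, 9.52 and 10.3 CPM in Kpna6ΔIBB/ΔIBB and 9.08, 7.93 and 10.5 CPM in Kpna6-/- testes. WT replicate 1 lay within the Kpna6ΔIBB/ΔIBB range. Against WT, Cdh5 differed by 0.29 ± 0.12 on the log2 scale (0.03 to 0.54), with an unadjusted p of 0.0319 and an adjusted p of 0.0767 in edgeR. Without WT replicate 1 it was 0.42 with an adjusted p of 0.0117, so that library decided whether Cdh5 passed. The difference between the mutant lines was 0.15 (-0.08 to 0.39, adjusted p = 0.321).

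Kdr encodes vascular endothelial growth factor (VEGF) receptor 2 (chromosome 5, 75932827-75978458, minus strand). It stood at 6.55, 5.57 and 5.44 CPM in WT, 7.84, 5.73 and 6.65 CPM in Kpna6ΔIBB/ΔIBB and 7.23, 6.14 and 5.42 CPM in Kpna6-/- testes. All 3 groups overlapped. The log2 fold change of 0.20 against WT had an interval from -0.09 to 0.50 (adjusted p = 0.272), which leaves room for an increase as large as that of Tagln.

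Vwf encodes von Willebrand factor, which endothelial cells store and release for platelet adhesion (chromosome 6, 125546774-125686679, plus strand). It was at 30.4, 28.5 and 29.3 CPM in WT, 21.8, 19.9 and 21.1 CPM in Kpna6ΔIBB/ΔIBB and 28.0, 28.0 and 28.3 CPM in Kpna6-/- testes. Every Kpna6ΔIBB/ΔIBB library was below every other library, and the Kpna6-/- libraries lay just under the WT range. The log2 fold change was -0.49 ± 0.07 against WT (-0.63 to -0.35, adjusted p = 6.01e-05) and -0.43 against Kpna6-/- (-0.56 to -0.30, adjusted p = 4.63e-05). The difference of Kpna6-/- from WT was -0.07 (adjusted p = 0.686).

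The decrease of Vwf was seen in its long coding transcript. Vwf-203, with 8834 bases, was measured at 3.25, 3.13 and 3.45 TPM in WT, 2.47, 2.69 and 2.27 TPM in Kpna6ΔIBB/ΔIBB and 3.26, 3.30 and 3.11 TPM in Kpna6-/- testes, with no overlap between Kpna6ΔIBB/ΔIBB and the other groups. Coding transcripts held 81.0% of the WT counts, and on them alone the log2 fold change was -0.54 (adjusted p = 0.00011). By TPM the picture was different, because the 456-base non-coding transcript Vwf-209 held 59.3% ± 11.8 of the WT TPM but 4.50% ± 1.69 of the WT counts. Vwf-209 ranged from 5.33 to 11.1 TPM in WT and from 3.18 to 9.21 TPM in Kpna6ΔIBB/ΔIBB testes. With limma on log2(TPM + 1) of the whole gene the difference was -0.41 and did not pass (adjusted p = 0.197).

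**Figure D3:**
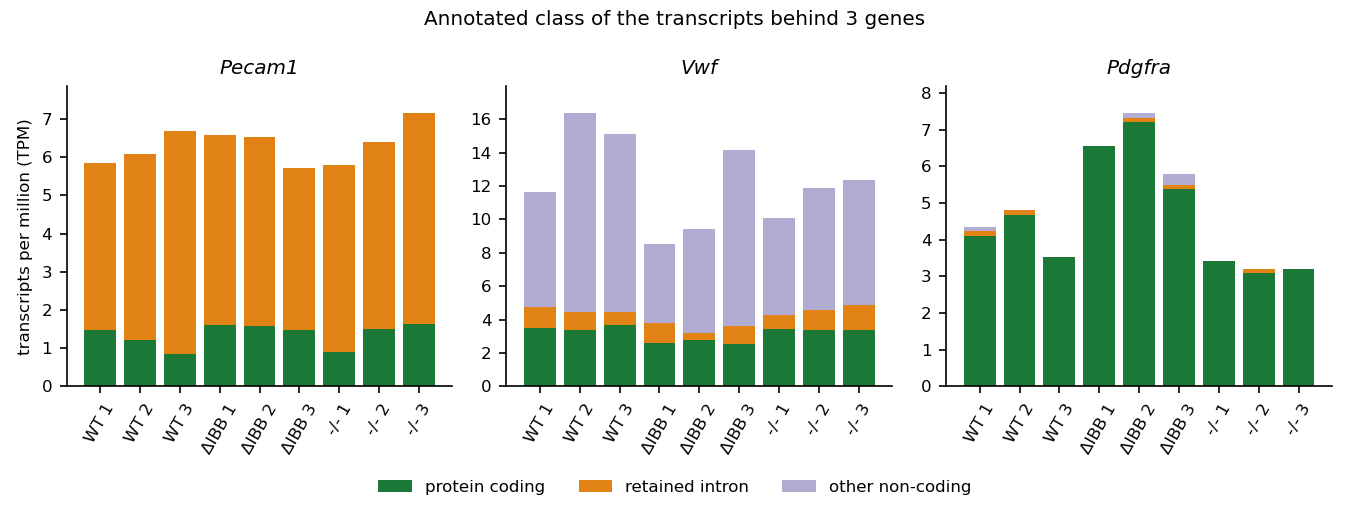
TPM (vertical axes, starting at 0) of Pecam1, Vwf and Pdgfra in each of the 9 libraries (horizontal axes), stacked by annotated transcript class. Retained-intron transcripts make up most of each Pecam1 bar, other non-coding transcripts most of many Vwf bars, and coding transcripts nearly all of each Pdgfra bar.

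Counted together, 5 of the 10 genes passed in Kpna6ΔIBB/ΔIBB against WT, where 37.1% of all 18797 genes tested passed. Of these, 4 were higher (17.9% of all genes) and 1 was lower (19.1% of all genes). The median log2 fold change of the 10 was 0.30, beside 0.01 over all genes. In 4 of the 10 every Kpna6ΔIBB/ΔIBB library was above every WT library, which held for 25.0% of all genes. With 10 genes these counts are only a description beside the background, and the values of the single genes carry the comparison.

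In Kpna6-/- against WT 0 of the 10 passed in edgeR, where 2.61% of 18681 genes did. DESeq2 also called 0, and 1 gene, Pdgfra, had an unadjusted p under 0.05 in edgeR. In Kpna6ΔIBB/ΔIBB against Kpna6-/- 6 passed, where 30.8% of 18752 genes did: Acta2, Myh11, Tagln, Pdgfra and Pdgfrb were higher (13.8% of all genes) and Vwf was lower (17.0% of all genes). This comparison and that with WT share the Kpna6ΔIBB/ΔIBB libraries. All 10 genes passed the filter on low counts in every comparison.

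Whole testis RNA cannot tell fewer cells of a type from less RNA per cell, and a value here is a share of all RNA in the library. Markers of other cells were read in the same libraries. Over all genes tested, 17.9% were higher and 19.1% were lower in Kpna6ΔIBB/ΔIBB than in WT. All 12 Sertoli cell markers were higher in Kpna6ΔIBB/ΔIBB than in WT testes, with a summed level of 901 to 992 TPM in WT, 1507 to 1763 TPM in Kpna6ΔIBB/ΔIBB and 1094 to 1174 TPM in Kpna6-/- testes. Of 10 spermatid markers 8 were lower in Kpna6ΔIBB/ΔIBB, with sums of 66830 to 76770 TPM in WT, 55640 to 63780 TPM in Kpna6ΔIBB/ΔIBB and 75070 to 76600 TPM in Kpna6-/-. No marker of these 2 lists was at 0. The 8 Leydig cell markers, from cells of the same interstitium as the vessels, gave 0 calls in edgeR, with 1 at an unadjusted p under 0.05 and 0 in DESeq2, and sums of 1985 to 3019, 1979 to 2840 and 2403 to 2444 TPM. The part of these shifts in the differences of the 10 genes was not tested.

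Among macrophage markers 4 of 9 were higher in Kpna6ΔIBB/ΔIBB than in WT (60.7 to 86.9 TPM summed in WT, 94.2 to 109 TPM in Kpna6ΔIBB/ΔIBB, 71.3 to 89.5 TPM in Kpna6-/-), and 2 of 8 spermatocyte markers were lower (4818 to 5195, 4936 to 4964 and 4899 to 5129 TPM). The spermatocyte sums overlapped between the groups. Muscle, blood, fat and the lining of the testis surface were read in the same way, beside the 17.9% of all genes higher and 19.1% lower. Skeletal muscle markers summed to 5.14 to 7.51 TPM in WT, 7.12 to 12.5 TPM in Kpna6ΔIBB/ΔIBB and 5.80 to 6.90 TPM in Kpna6-/-, with 1 of 3 tested markers higher in Kpna6ΔIBB/ΔIBB. Blood markers summed to 117 to 178, 70.6 to 119 and 72.1 to 161 TPM (1 of 5 higher, 2 lower), adipocyte markers to 59.2 to 68.0, 33.3 to 48.0 and 54.6 to 74.4 TPM (1 of 4 lower), and mesothelial markers to 29.9 to 30.8, 42.1 to 48.3 and 32.0 to 33.6 TPM (1 of 3 tested higher). The mesothelial sum rests on 1 gene, which Sertoli cells also express, since 3 of the 4 markers were under 1 TPM in every library, and the median log2 fold change of the 3 tested was -0.39.

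The epididymis and seminal vesicle, which have muscular walls of their own, were covered by 7 markers. Their sum was 10.2 to 11.5 TPM in WT, 30.7, 25.6 and 98.8 TPM in Kpna6ΔIBB/ΔIBB and 14.9 to 21.6 TPM in Kpna6-/- testes. Kpna6ΔIBB/ΔIBB replicate 3 stood apart through the epididymal gene Crisp1, at 77.0 TPM there and at 0.22 and 1.92 TPM in the other libraries of its group, while Lcn5 was at 0 in every library and 4 of the 7 markers were under 1 TPM in all. That library also had the highest Acta2, Myh11, Cnn1 and Pdgfra of its group in normalised CPM. By TPM its Pdgfra was the lowest of the group, at 5.81 beside 6.55 and 7.45. Without it Acta2 differed from WT by 0.59 (adjusted p = 2.59e-06), Myh11 by 0.20 (adjusted p = 0.0452), Tagln by 0.46 (adjusted p = 0.00189), Pdgfra by 0.53 (adjusted p = 0.000183) and Vwf by -0.49 (adjusted p = 0.000167). The number of genes called stayed at 5 against WT and at 6 against Kpna6-/-.

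**Figure D4:**
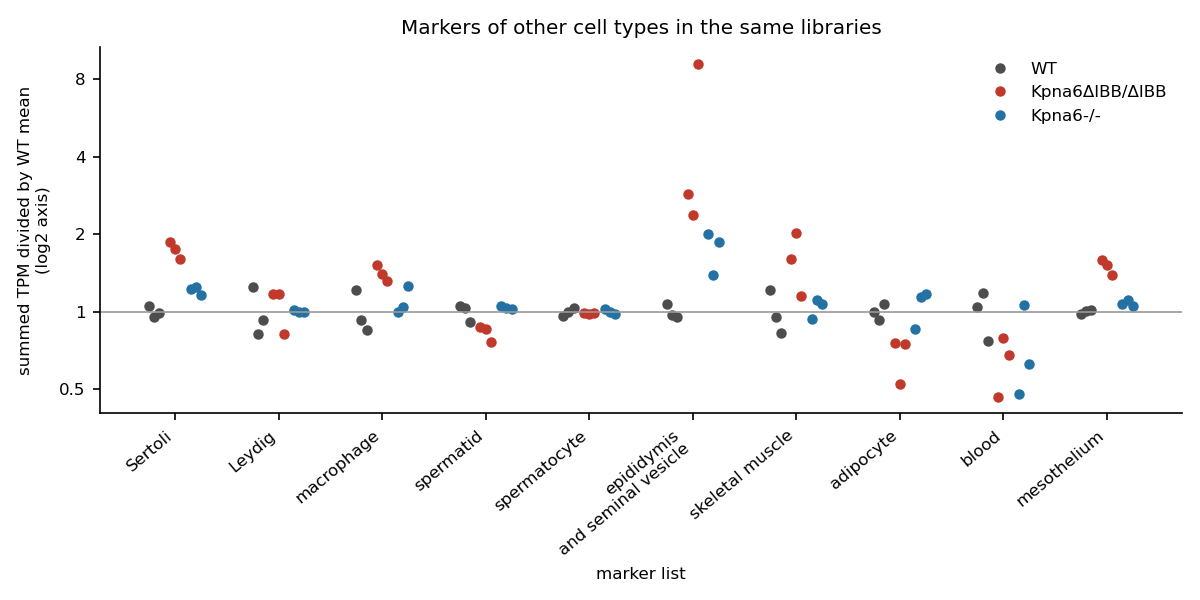
Summed TPM of 10 marker lists (horizontal axis) in each library, divided by the WT mean of the list (vertical axis, log2 scale), with 1 point for each library, coloured by genotype. Kpna6ΔIBB/ΔIBB points lie above WT for Sertoli cells, macrophages and mesothelium (where 3 of 4 markers were under 1 TPM). They lie below WT for spermatids and adipocytes. For epididymis and seminal vesicle all Kpna6ΔIBB/ΔIBB points lie above WT, and replicate 3 stands apart from the others.

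Other genes of the same cells and pathways were read from 8 lists with 114 genes in all, of which 111 were tested in Kpna6ΔIBB/ΔIBB against WT. Among these, 37 were higher and 10 were lower in Kpna6ΔIBB/ΔIBB, where 17.9% of all genes tested were higher and 19.1% were lower. The lists were chosen with earlier results of these data known and were given no test of their own. Genes of at least 1 TPM on average are named, up to 3 in each direction and list.

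Of 20 other genes of the smooth muscle contractile apparatus, 13 rose, 2 fell and 5 did not pass in Kpna6ΔIBB/ΔIBB, with a median log2 fold change of 0.33, beside 17.9% higher, 19.1% lower and a median of 0.01 over all genes. Smtn, smoothelin, a marker of contractile smooth muscle, rose by 1.32 ± 0.11 (SE, adjusted p = 1e-06), Myl9, a regulatory myosin light chain, by 0.85 ± 0.06 (adjusted p = 6.03e-07) and Lmod1, the actin-nucleating leiomodin of smooth muscle, by 0.76 ± 0.14 (adjusted p = 0.000592). The genes that fell were Itga1, an integrin for collagen (-0.82, adjusted p = 1.27e-06), and Actg2, enteric smooth muscle γ-actin (-0.40, adjusted p = 9.18e-06). Actg2 is also known from haploid male germ cells, and its level of 346 ± 17.1 TPM in WT was far above that of Acta2. It stood at 331, 342 and 364 TPM in WT, at 291, 272 and 284 TPM in Kpna6ΔIBB/ΔIBB and at 361, 343 and 348 TPM in Kpna6-/- testes, without overlap between Kpna6ΔIBB/ΔIBB and the others.

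Among 8 tested genes of SRF and myocardin regulation, which include cofactors, TEAD factors and secreted targets, 1 rose, 1 fell and 6 did not pass. Ccn2, connective tissue growth factor, rose by 0.54 (adjusted p = 2.03e-05), and the SRF cofactor Mrtfb fell by 0.25 (adjusted p = 0.00143). Srf itself, at 18.0 ± 0.591 TPM in WT and 20.6 ± 0.320 TPM in Kpna6ΔIBB/ΔIBB, is named after its values were seen, and its log2 difference of 0.07 did not pass (adjusted p = 0.305).

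Among 12 genes of PDGF and hedgehog signalling 5 rose, 1 fell and 6 did not pass. The ligand gene Pdgfb rose by 0.50 (adjusted p = 0.0397) and Pdgfd fell by 0.33 (adjusted p = 0.0393). On the hedgehog side Smo, the signal transducer of the pathway, rose by 0.46 (adjusted p = 0.00889) and Gli1, its transcriptional effector and target, by 0.56 (adjusted p = 0.0157). Dhh, the desert hedgehog ligand of Sertoli cells, is named after its values were seen. It was 10.6 ± 0.814 TPM in WT and 14.7 ± 0.828 TPM in Kpna6ΔIBB/ΔIBB, a log2 increase of 0.34 (adjusted p = 0.00399).

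The interstitial mesenchyme list had the highest median of the 8 lists, 0.49, with 8 of 13 genes higher and 5 not passing. Vim, the intermediate filament vimentin that Sertoli cells also express, rose by 1.00 (adjusted p = 3.15e-06) and Pdpn, podoplanin, by 1.01 (adjusted p = 0.000519). Among 9 pericyte and mural cell genes 2 rose and 7 did not pass. These were Mcam, an adhesion molecule (0.45, adjusted p = 0.000504), and Heyl, a Notch target (0.71, adjusted p = 0.0113). Heyl was 1.15 ± 0.211 TPM in WT and 1.17 ± 0.177 TPM in Kpna6ΔIBB/ΔIBB, so its increase was seen in counts and not in TPM.

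Endothelial lists had medians close to that of all genes. Of 20 endothelial receptor and junction genes 5 rose, 1 fell and 14 did not pass, with a median of 0.08. Robo4, an endothelial guidance receptor, rose by 1.83 ± 0.23 (adjusted p = 8.63e-05) from 0.561 ± 0.115 to 2.18 ± 0.680 TPM. Eng, a transforming growth factor β co-receptor, rose by 0.42 (adjusted p = 0.00923), and Nrp1, a VEGF co-receptor, by 0.40 (adjusted p = 0.0157). Flt1, VEGF receptor 1, fell by 0.33 in counts (adjusted p = 0.04), while its mean TPM was 1.71 ± 0.241 in WT and 2.23 ± 0.964 in Kpna6ΔIBB/ΔIBB.

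Of 14 endothelial transcription factor and secreted protein genes 2 rose, 2 fell and 10 did not pass (median 0.00). Edn1, the vasoconstrictor endothelin 1, rose by 1.00 (adjusted p = 0.00643) and Ets1 by 0.48 (adjusted p = 0.00919), whereas Egfl7 fell by 0.42 (adjusted p = 0.0204) and Sele, E-selectin, by 0.50 (adjusted p = 0.0388). Among 15 genes of VEGF, angiopoietin and Notch signals 1 rose, 3 fell and 11 did not pass (median -0.05). Notch1 rose by 0.63 (adjusted p = 0.000307). Angpt2, an antagonist of the TIE2 receptor (-0.72, adjusted p = 0.00955), the Notch ligand Jag1 (-0.65, adjusted p = 5.28e-06) and Angptl2 (-0.59, adjusted p = 0.0327) fell.

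In Kpna6-/- against WT 2 of 110 tested genes of these lists were higher and 3 were lower, where 2.61% of all genes were called. Smtn (0.57, adjusted p = 0.00501) and Vim (0.34, adjusted p = 0.0174) rose, and Itga1 (-0.38, adjusted p = 0.00145), the hedgehog receptor gene Ptch1 (-0.41, adjusted p = 0.0189) and Jag1 (-0.27, adjusted p = 0.0203) fell. They are named because they are all that passed. Smtn, Vim, Itga1 and Jag1 had the same direction in Kpna6ΔIBB/ΔIBB, and these comparisons share the WT libraries. In Kpna6ΔIBB/ΔIBB against Kpna6-/- 35 of 112 were higher and 6 were lower, with 13 of 20 contractile genes higher, where 13.8% of all genes were higher and 17.0% were lower.

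**Figure D5:**
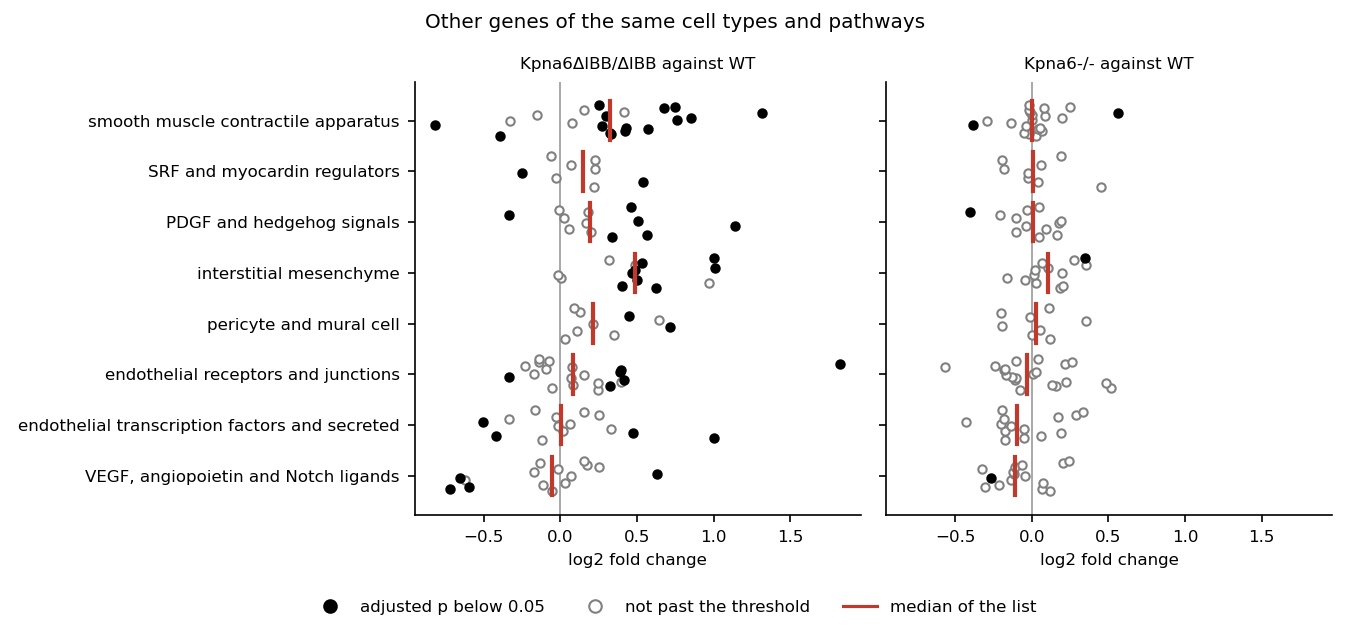
Log2 fold changes (horizontal axes, the same scale in both panels) of the tested genes of 8 lists (vertical axis) in Kpna6ΔIBB/ΔIBB and in Kpna6-/- against WT. Each point is a gene, filled where the adjusted p was below 0.05, and the red lines are list medians, which lie between -0.05 and 0.49 in Kpna6ΔIBB/ΔIBB and between -0.11 and 0.11 in Kpna6-/-.

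Across the 9 libraries, likeness between genes was measured as the root mean square (RMS) difference of their centred log2 values, where 0 means the same pattern. Among the 10 genes Myh11 and Cnn1 were the closest pair (0.10), followed by Acta2 and Tagln (0.12), and Pdgfra and Vwf were the farthest apart (0.53). Among 16161 genes compared, the patterns nearest to Acta2 were those of Cltb (0.06), a clathrin light chain gene, and Tubb5 (0.06), a β-tubulin gene. Nearest to Tagln was Emilin1 (0.06), a gene of the elastic fibre matrix, and nearest to Vwf were Ccdc186 (0.03) and Atad1 (0.03), which were also lower in Kpna6ΔIBB/ΔIBB, by 0.50 and by 0.48 on the log2 scale. The genes nearest to Pdgfra were Gm8267 (0.09) and H2afj (0.10). All 10 genes were measured in the same libraries, and no p is given for such likeness.

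Neighbouring genes within 2 Mb of each member were also read. In Kpna6ΔIBB/ΔIBB against WT no window held more than 1.5 times the share of all genes, with 25.7% of tested neighbours called around Pdgfrb and 51.6% around Kdr as the extremes, beside 37.1% overall. Around Vwf the share was 41.7% (25 of 60). In Kpna6-/- against WT 9 of 63 neighbours of Vwf passed (14.3%, beside 2.61% overall), among them Gapdh (-0.59), Gpr162 (-0.54) and Plekhg6 (1.90), whereas Vwf itself did not. Around Pdgfrb 4 of 35 passed (11.4%) and around Pecam1 2 of 46 (4.35%).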

How the data were processed

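RNA was measured in whole testes of 9 mice, 3 for each genotype by the labels, which number the replicates but do not say more about the animals, so the p-values measure the spread between these samples. Poly(A) RNA was made into unstranded libraries and sequenced as 150-base pairs. The authors assigned the reads to mouse transcripts (mm10) with kallisto, version 0.45 per the submitters' processing notes, and deposited an estimated count and a TPM value for each of 96626 transcripts. Estimated counts are not normalised between libraries, and TPM is scaled by kallisto to a fixed total within each library.

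Values were summed over the transcripts of a gene with GENCODE M21 (GRCm38), which placed 95301 transcripts in 32035 genes and left 1325 out. Gene counts were rounded, filtered with filterByExpr, scaled by trimmed mean of M values (TMM) and tested by the robust quasi-likelihood test of edgeR 4.0.16 (R 4.3.3), with the 6 libraries of each comparison and Benjamini-Hochberg adjustment over all genes tested. The threshold was an adjusted p of 0.05. Fold changes and intervals are from that fit, and normalised CPM uses the TMM-scaled library sizes of all 9 samples. SE and the 95% intervals follow from the F statistic and its degrees of freedom. Alternatives were DESeq2 1.42.0, limma 3.58.1 on log2(TPM + 1) and log2(TPM + 0.1), other filters, scalings and sums, a replicate block and leaving out each library. Counting coding transcripts only and fitting without robust estimation were added after the data were seen. The code was checked on simulated counts. Near-identical sequence was searched for with blastn (at least 95% over 100 bases), and upstream sequences are RefSeq's (GRCm38.p6). The 10 genes and all lists were chosen with earlier results of these data known. In the lists, genes with a mean of at least 1 TPM are named, up to 3 in each direction (1 such gene is not reported here), and for each member the 2 genes of nearest pattern were found. The counts set the precision, which is lowest for Cnn1, Pdgfrb and Kdr.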

Additional observations from a re-analysis of the deposited data

Results flagged for a closer look

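The effect of the 2 mutations differed for 6 of the 10 genes when the lines were compared directly with the edgeR test, Kpna6ΔIBB/ΔIBB against Kpna6-/-, in which 30.8% of all genes tested were called. The log2 difference was 0.53 for Acta2, 0.29 for Myh11, 0.51 for Tagln, 0.78 for Pdgfra and 0.57 for Pdgfrb, each higher in all 3 Kpna6ΔIBB/ΔIBB libraries, and -0.43 for Vwf, lower in all 3. For Pdgfrb neither line differed from WT past the threshold.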

How the results depend on the processing

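Over 18 alternatives for each comparison, the number of the 10 genes called was 4 to 7 in Kpna6ΔIBB/ΔIBB against WT, 0 throughout in Kpna6-/- against WT and 5 to 6 between the lines. Acta2 and Pdgfra in Kpna6ΔIBB/ΔIBB were called in all 18 against WT and in all 18 against Kpna6-/-. Vwf lost its call with TPM-based values, in Kpna6ΔIBB/ΔIBB against WT with length-scaled counts (-0.53, adjusted p = 0.0968) and limma (adjusted p = 0.197 and 0.191), and between the lines, where the difference of -0.43 became -0.22, -0.11 and -0.13 (adjusted p = 0.462, 0.697 and 0.687). Without TMM, by library size only, the median of all genes moved to 0.11, and Cnn1 (0.41, adjusted p = 0.0447) and Cdh5 (0.38, adjusted p = 0.0245) passed.

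The direction turned in these cases. Tagln summed with Pcsk7 gave -0.0718 against WT and -0.0502 between the lines, by construction a sum of both genes. Pecam1 in Kpna6ΔIBB/ΔIBB against WT was 0.0857 by library size only, 0.0131 and 0.0148 with limma at pseudocounts of 1 and 0.1, 0.36 on coding transcripts and -0.0697 to 0.0405 when a library was left out, in Kpna6-/- it was -0.00024 summed with its near-identical genes, and between the lines it was 0.0681 on coding transcripts. Leaving out a library moved Myh11 from -0.0514 to 0.0505, Tagln from -0.14 to 0.0220, Pdgfrb from -0.37 to 0.11 and Kdr from -0.0173 to 0.19 in Kpna6-/- against WT, and Kdr from -0.021 to 0.21 between the lines.

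The 487 genes called over the whole table in Kpna6-/- against WT became 930 with no filter, 90 with length-scaled counts, 24 and 29 with limma at pseudocounts of 1 and 0.1, 299 without robust estimation and 150 to 810 when a library was left out, highest without WT replicate 1. The cause was not tested.

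Deviations of replicates with the same number had correlations of -0.00481 to 0.0786, -0.04 to -0.01 and 0.01 to 0.09 in the 3 comparisons. For different numbers they were -0.13 to 0.06, -0.02 to 0.03 and -0.08 to 0.05, and the ranges overlapped in each comparison. The labels do not say that the numbers pair the animals, so the main fit had no block. With a replicate block 6, 0 and 6 of the 10 genes were called, beside 5, 0 and 6 without it. Over all genes 7027, 378 and 6334 were called with it, beside 6967, 487 and 5784. With the block Cdh5 passed against WT (0.30, adjusted p = 0.0399).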
